A study of Mus musculus with 24 samples.

Results

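The mitochondrially encoded genes are the genes of mouse mitochondrial DNA, taken here as every gene whose symbol, matched from the Ensembl ID, begins with mt-. They numbered 37 of the 47069 gene IDs in each count table: 13 mRNA genes, 2 rRNA genes and 22 tRNA genes. They were read in hippocampal RNA of male mice with or without Kdm5c, an X-linked gene for a demethylase of lysine 4 of histone H3. The 24 sample records described 18 libraries in 6 groups of 3, and each library pooled the tissue of 3 mice aged 2 to 4 months. Knockout (KO) mice carried the Kdm5c null allele in every cell (Kdm5c-/y) and were compared with wild-type mice, on a mixed F1 C57/129 background, either untreated or after 1 h in a box with tubing and toys (novelty). Inducible forebrain knockout (ifKO) mice carried floxed Kdm5c (Kdm5c f/f) and CaMKIIα-creERT2 on a pure C57BL/6J background. The CaMKIIα promoter limits Cre to neurons that use it. These mice were compared with control mice, and no novelty is listed for either group. The Cre and tamoxifen status of control mice are details not given in the sources used here, and the extraction text speaks of cultures while every other label names tissue. The KO line was read as single reads of 50 nt on 1 flowcell and the inducible line as paired reads of 75 nt on another, so line, background, flowcell and read type cannot be told apart.

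Mitochondrial DNA is transcribed from both of its strands into long precursors, from which the mRNAs and rRNAs are released mostly by cutting out the tRNAs that lie between them. Its mRNAs encode core subunits of respiratory complexes I, III and IV and of ATP synthase, the other subunits of which come from nuclear genes, and its rRNAs are those of the mitochondrial ribosome. Neurons depend on this machinery for most of their ATP. Nuclear chromosomes also hold pieces of mitochondrial DNA, and a read that matches a piece as well as the original has no unique place in the genome.

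Such a piece of the mouse nuclear genome held near-identical copies of 7 of the 13 mRNA genes. The copies, annotated as separate pseudogenes, lay side by side on the minus strand at chr1:24611535-24616197 (GRCm38). Of 4137 bases that could be aligned between the 7 genes and their copies, 1 differed. It was A1066T between mt-Co1 and Gm29216, with positions counted from base 1 at the 5′ end of the mt-Co1 transcript. The 120 bases around this single difference, bases 1063 to 1182 of mt-Co1, are shown with the difference in capitals, because every other aligned base of the 7 genes was the same in gene and copy.
mt-Co1: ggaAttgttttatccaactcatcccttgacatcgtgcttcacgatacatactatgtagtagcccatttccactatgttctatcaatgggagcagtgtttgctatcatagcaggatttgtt
Gm29216: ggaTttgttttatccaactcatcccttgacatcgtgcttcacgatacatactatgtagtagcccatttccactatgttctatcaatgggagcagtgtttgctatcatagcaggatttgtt
The shortest copy, Gm10222, matched mt-Nd4l over 294 of 294 aligned bases, so a read of any length used here that falls within them can come from either place. That shared stretch, bases 1 to 294 of the gene, is shown whole because mt-Nd4l had no count in any single-read library.
mt-Nd4l and Gm10222: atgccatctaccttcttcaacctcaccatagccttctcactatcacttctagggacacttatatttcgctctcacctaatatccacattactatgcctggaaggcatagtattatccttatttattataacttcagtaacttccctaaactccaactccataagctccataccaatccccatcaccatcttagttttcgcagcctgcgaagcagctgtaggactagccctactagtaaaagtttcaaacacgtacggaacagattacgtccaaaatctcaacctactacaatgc
The first 120 bases of mt-Co2, which were the same in Gm28661, are shown as an example of an mRNA with hardly any counts.
mt-Co2 and Gm28661: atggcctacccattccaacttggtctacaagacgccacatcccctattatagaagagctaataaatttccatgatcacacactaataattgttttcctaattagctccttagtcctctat
The 204 bases of mt-Atp8 are shown because this mRNA was nearly without counts and yet shared no stretch of 50 bases with another annotated transcript. Its last 43 bases, in capitals, are also the first bases of mt-Atp6, whose reading frame overlaps it. The same 43 bases occur in Gm10925, the copy of mt-Atp6.
mt-Atp8: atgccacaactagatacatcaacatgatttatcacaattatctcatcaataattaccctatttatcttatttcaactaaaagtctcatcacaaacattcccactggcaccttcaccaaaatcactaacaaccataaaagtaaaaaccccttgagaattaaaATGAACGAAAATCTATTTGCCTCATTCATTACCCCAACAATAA

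The other copies were Gm28661 of mt-Co2, Gm10925 of mt-Atp6, Gm28437 of mt-Co3, Gm28438 of mt-Nd3 and Gm28439 of mt-Nd4, each without a difference over 681, 678, 783, 342 and 876 aligned bases. The copies stood in the order of the mitochondrial genes, with gaps between neighbours, from mt-Nd4 back to mt-Co1, of -4, 74, 69, 2, 233 and 140 bases on chromosome 1 against -7, 70, 68, -1, 230 and 140 bases in mitochondrial DNA (a negative gap is an overlap). mt-Atp8 lies in the mitochondrial gap of 230 bases between mt-Co2 and mt-Atp6, and no transcript is annotated in the matching gap of 233 bases on chromosome 1, whose sequence was not analysed here. The copies themselves had 0 to 30 counts in a single-read library and 2 to 210 in a paired-read library.

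Sharing was measured as the share of all stretches of read length in a transcript that occur letter for letter in another annotated transcript, on the same or the opposite strand. At 50 bases, 100% of the stretches of mt-Co2 were shared, 99.9% of mt-Co3, 99.5% of mt-Atp6, 98.8% of mt-Nd4l and 98.0% of mt-Nd3. mt-Nd4 shared 62.2% of them, all within its bases 1 to 876, and mt-Co1 shared 51.1%. The shares were 8.19% in mt-Nd2, 7.61% in mt-Nd5 and 1.04% in mt-Rnr2, and 0% in mt-Nd1, mt-Cytb, mt-Nd6, mt-Atp8 and mt-Rnr1. At 75 bases they were 39.8% in mt-Co1, 61.5% in mt-Nd4, 5.71% in mt-Nd2 and 1.66% in mt-Nd5.

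Counts fell into 2 classes that mostly followed this sharing. mt-Co2, mt-Co3, mt-Atp6, mt-Nd3, mt-Nd4l and mt-Atp8 together had 405 of 9209945 mitochondrial mRNA counts in the 12 single-read libraries and 1766 of 10163653 in the 6 paired-read libraries. Of these, 5 shared 98.0% or more of their stretches of 50 bases, and mt-Atp8 shared none. mt-Co2, the subunit of complex IV that takes electrons from cytochrome c, had 0 to 11 counts in a single-read library and 71 to 109 in a paired-read library. mt-Co3, a core subunit of complex IV, had 4 to 29 and 66 to 101. mt-Atp6, the membrane subunit that forms the proton path of ATP synthase, had 5 to 24 and 53 to 82. mt-Atp8, a small ATP synthase subunit, had 1 count over the 12 single-read libraries and 9 to 15 in each paired-read library. mt-Nd3, a small membrane subunit of complex I, had 0 to 5 and 30 to 49, and mt-Nd4l, another one, had 0 and 1 to 6. The other 7 mRNAs, called the 7 counted mRNAs from here on, had at least 568 counts in every library. The low counts of 5 of the 6 genes stand beside their sequence sharing, and those of mt-Atp8 do not. How reads with several matches were dropped or kept is a detail not given in the sources used here beyond a category of reads without a unique alignment. That category held 21.9% to 23.6% of all reads in the single-read libraries and 11.8% to 12.7% in the paired-read libraries.

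**Figure D1:**
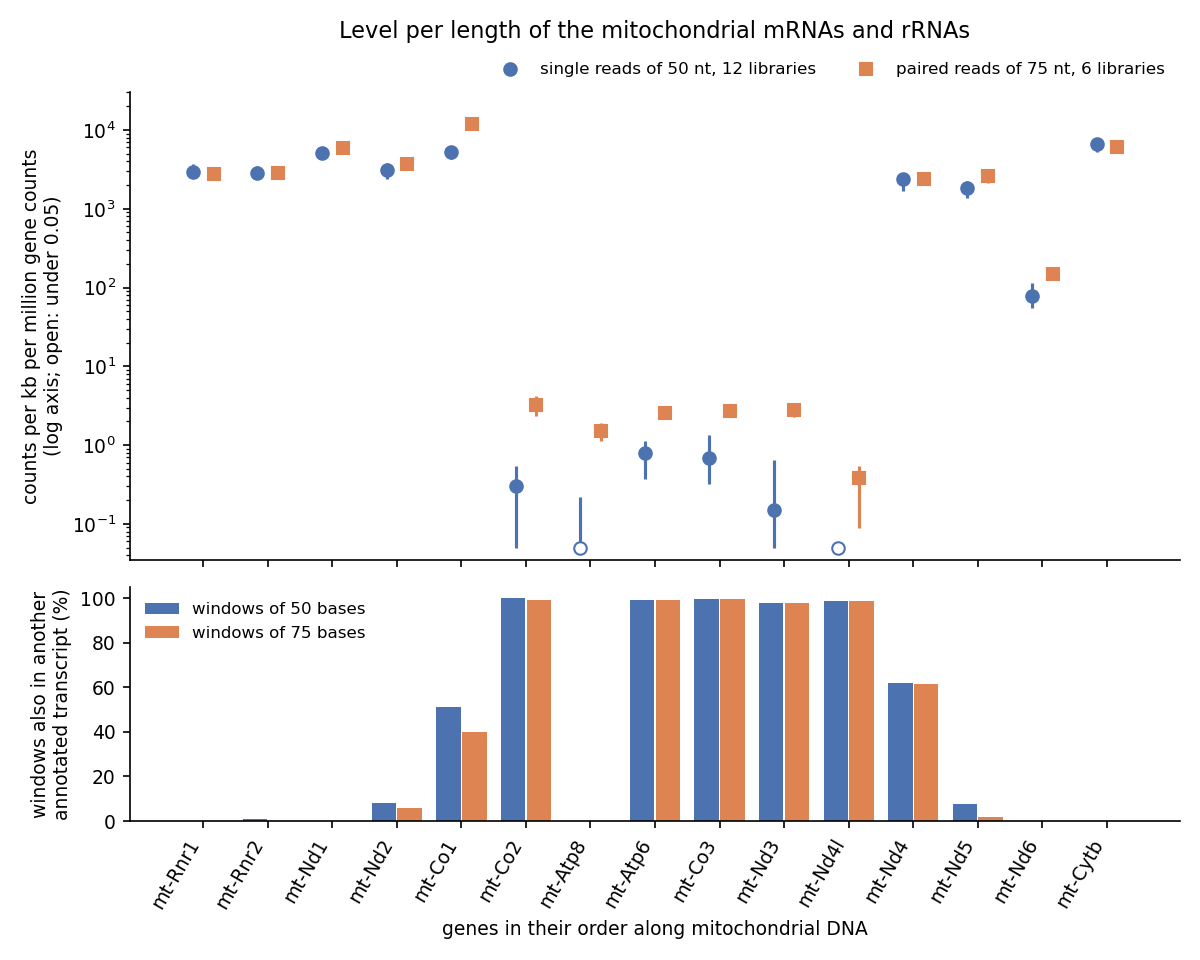
Level per length of the mRNAs and rRNAs (top, unscaled CPM per kb of transcript, log axis, mean with the range over 12 single-read or 6 paired-read libraries; values under 0.05 are drawn open or cut at the bottom) and the share of read-length stretches that also occur in another annotated transcript (bottom, %), in gene order. The 6 genes from mt-Co2 to mt-Nd4l sit between 0 and 3.18 on average while the other genes lie at 77.1 or more, and mt-Atp8 is low without a shared stretch.

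Among the 7 counted mRNAs, level per length is given as CPM per kb of transcript, CPM being counts-per-million of all gene counts, here without further scaling (mean ± SD over libraries). In the 12 single-read libraries mt-Cytb, the cytochrome b core of complex III, was highest at 6723 ± 596. mt-Co1, the catalytic subunit of complex IV, had 5274 ± 350 and mt-Nd1, a core membrane subunit of complex I, 5170 ± 515, a difference within 1 SD of either. Further core membrane subunits of complex I followed, with 3138 ± 387 for mt-Nd2, 2386 ± 248 for mt-Nd4 and 1827 ± 239 for mt-Nd5. The rRNAs had 2949 ± 351 (mt-Rnr1, of the small ribosomal subunit) and 2817 ± 311 (mt-Rnr2, of the large one), which also did not differ beyond their SD. mt-Nd6, the only mRNA gene on the minus strand, had 77.1 ± 17.3.

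In the 6 paired-read libraries the order changed at the top. mt-Co1 led with 11836 ± 776, ahead of mt-Cytb with 6002 ± 337 and mt-Nd1 with 5907 ± 360, and the last pair did not differ beyond their SD. mt-Nd2 had 3702 ± 207, mt-Rnr2 2882 ± 230, mt-Rnr1 2763 ± 243, mt-Nd5 2607 ± 258, mt-Nd4 2376 ± 142 and mt-Nd6 148 ± 17.9. The ratio of the paired-read to the single-read mean was 2.24 for mt-Co1, 1.92 for mt-Nd6 and 1.43 for mt-Nd5, against 0.893 to 1.18 for the other counted mRNAs and both rRNAs. mt-Co1 counts were 0.996 to 1.17 times those of mt-Cytb in a single-read library and 2.56 to 2.75 times in a paired-read library. Levels set across the lines mix line, background and read type. Of the counted mRNAs, mt-Co1 had the widest gap and the largest drop in shared stretches from 50 to 75 bases. mt-Nd6, with the next ratio of 1.92, shared 0% at both lengths. mt-Nd4, with a ratio of 0.995, shared 62.2% and 61.5%. The part of sharing in these ratios was not tested.

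tRNAs were close to the floor of these libraries. The 22 genes, 14 on the plus strand and 8 on the minus strand, are 59 to 75 bases long and together held 12.1 to 19.5 CPM in single-read libraries and 26.4 to 29.5 in paired-read libraries. In 4 of them (mt-Tf, mt-Tk, mt-Tg and mt-Th) no library had a count, 13 had at most 7 counts in every library, and 9 had 10 or more in some library. The 3 with the highest mean count are shown with the anticodon in capitals: mt-Tw carries tryptophan, mt-Tp proline and mt-Ti isoleucine.
mt-Tw: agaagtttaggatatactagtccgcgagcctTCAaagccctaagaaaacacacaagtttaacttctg
mt-Tp: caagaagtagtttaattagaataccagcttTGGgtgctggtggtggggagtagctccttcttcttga
mt-Ti: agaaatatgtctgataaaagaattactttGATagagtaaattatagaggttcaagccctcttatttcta
mt-Tw had 38 to 168 counts in a single-read library and 403 to 496 in a paired-read library, and mt-Tp 14 to 50 and 245 to 325. mt-Ti went the other way, with 58 to 242 counts in a single-read library and 18 to 40 in a paired-read library. mt-Tl1, one of the leucine tRNAs, had 29 to 78 against 0 to 1, and mt-Tt, for threonine, 0 to 7 against 121 to 177. No tRNA gene is longer than 75 bases, so a paired read of 75 nt aligned in full fills the gene or runs past it. These counts therefore do not separate mature tRNAs from precursors.

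As a share of all gene counts, the mitochondrially encoded genes held 3.14% to 4.12% in a library of the KO line and 4.64% to 5.38% in the inducible line. mRNAs made up 81.0% of the mitochondrial counts in the single-read libraries and 85.5% in the paired-read libraries, with rRNAs nearly all of the rest. Library size was 16.02 to 45.6 M gene counts in the KO line and 36.3 to 44.0 M gene counts in the inducible line, so counting error is small beside the spread between libraries for the 7 counted mRNAs and the rRNAs. Kdm5c itself had 74.2 to 76.4 CPM in untreated wild-type and 75.4 to 76.3 in untreated KO libraries, and 62.1 to 67.5 in control and 63.6 to 69.0 in ifKO libraries. After novelty it had 90.2 to 100.04 CPM in wild type and 77.8 to 86.5 in KO, without overlap (log2 fold change -0.24 ± 0.06, adjusted p = 0.108 by edgeR and 0.0364 by DESeq2). Counts were of the whole gene and were not split by exon, so the Kdm5c count was not used to check a genotype label. Markers of neurons summed to 4536 to 5539 CPM in every library, with no neuronal marker at 0. Markers of other cell types were present as well: oligodendrocyte markers summed to 3065 to 3330 in untreated wild-type against 2326 to 2626 in untreated KO libraries. Choroid plexus markers summed to 33.7 to 78.6, except for 618.8 in untreated KO library 2 and 394.7 in control library 1. In bulk tissue, fewer cells of a type and less RNA per cell cannot be told apart. An earlier look at these data had set 2 novelty libraries apart from their groups, number 1 of wild type and number 2 of KO. Members called without both are named below, and most other values, medians among them, are given with all libraries. Both libraries were picked from these same data, so p-values without them are not independent support for a call.

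The mRNA share of gene counts was 3.27%, 3.08% and 3.30% in the untreated wild-type libraries 1 to 3, against 3.11%, 3.16% and 3.29% in untreated KO. Wild-type novelty libraries had 2.87%, 3.37% and 3.08%, and KO novelty libraries 3.05%, 2.42% and 2.85%. Untreated groups overlapped fully, and after novelty the KO library 2 was the lowest of the line while KO library 1 lay inside the wild-type range. In the inducible line it was 4.58%, 4.41% and 4.40% in control and 3.89%, 4.37% and 4.00% in ifKO, where the highest ifKO library lay just under the lowest control library.

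The rRNA share was 0.668%, 0.654% and 0.637% in untreated wild type and 0.677%, 0.719% and 0.676% in untreated KO, without overlap. It was 0.912%, 0.740% and 0.810% after novelty in wild type, all above the untreated wild-type libraries. In KO it was 0.824%, 0.717% and 0.691% after novelty, which overlapped untreated KO. Control libraries had 0.791%, 0.732% and 0.718% and ifKO libraries 0.775%, 0.658% and 0.645%.

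rRNA counts per mRNA count were 0.193 to 0.213 in untreated wild type and 0.206 to 0.227 in untreated KO. Wild-type novelty libraries had 0.318, 0.219 and 0.263, and KO novelty libraries 0.270, 0.296 and 0.243. Every novelty library of KO lay above every untreated library, and 1 of the 3 wild-type novelty libraries did not. The 2 libraries set apart had the highest ratios of their groups. This ratio was 0.163 to 0.173 in control and 0.150 to 0.199 in ifKO.

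**Figure D2:**
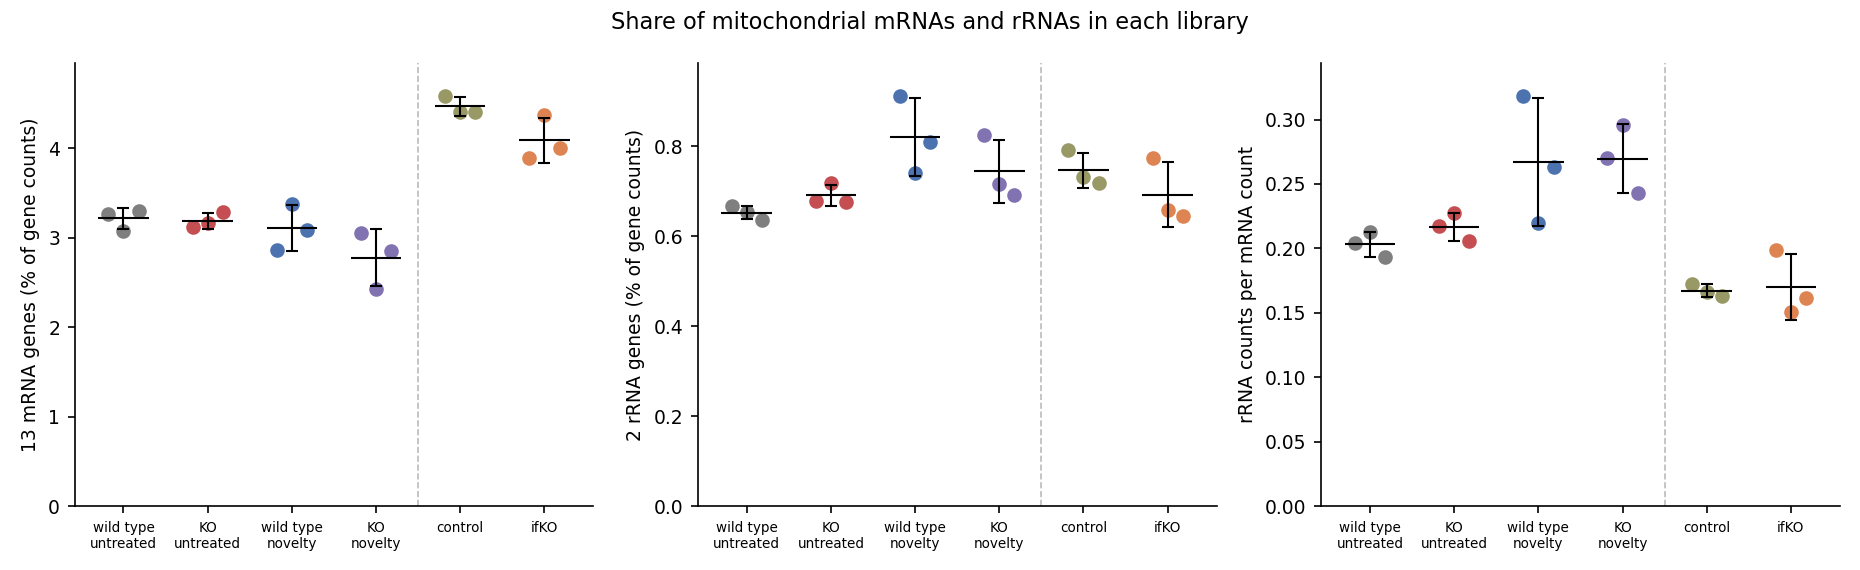
Share of gene counts in the 13 mRNA genes (left, %) and in both rRNA genes (middle, %), and rRNA counts per mRNA count (right), with 1 point per library and bars for the mean ± SD of 3 libraries. The dashed line separates single-read from paired-read libraries; the rRNA share reaches 0.912% in wild type after novelty against at most 0.668% in untreated wild type.

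Each comparison below was tested with edgeR's quasi-likelihood test over all genes, and adjusted p means Benjamini-Hochberg over all genes tested. A gene was called at an adjusted p under 0.05. Values per library are CPM scaled with TMM factors within each line, in the order of libraries 1 to 3, and fold changes are on the log2 scale with their standard error (SE). Of the 37 genes, 17 passed the filter on low counts in the KO line: the 7 counted mRNAs, mt-Atp6, mt-Co3, both rRNAs and 6 tRNAs. In the inducible line 22 passed. Each library is a pool of mice, so p-values measure the spread between pools. Members were read in the same libraries, so their signs and p-values are not independent of one another.

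Untreated KO and untreated wild type were compared to ask what lifelong loss of Kdm5c does at rest, and no mitochondrially encoded gene was called. Of 17 tested, 0 were called by edgeR (smallest adjusted p = 0.640) and 0 by DESeq2, and 0 had an unadjusted p under 0.05, beside 1.24% of all genes called and 8.66% with such a p. The median log2 fold change of the 9 tested mRNAs was 0.07 with 7 positive, against 0.00 and 50.5% over all genes tested. With offsets for GC content and length the median of the 7 counted mRNAs was -0.06, so its sign depends on the processing.

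The complex I member with the largest difference was mt-Nd5, with 3584, 3210 and 3310 CPM in wild type against 3444, 4220 and 3713 CPM in KO. The groups overlapped (log2 fold change 0.17 ± 0.11, adjusted p = 0.752). mt-Cytb had 8021, 7885 and 8344 CPM in wild type against 7874, 7392 and 8052 CPM in KO (-0.06 ± 0.09, adjusted p = 0.908). For complex IV mt-Co3 and for ATP synthase mt-Atp6 had the largest values, 0.09 ± 0.42 and 0.14 ± 0.34, on at most 24 counts a library. mt-Rnr2 had 4051, 3886 and 3827 CPM in wild type against 4179, 4585 and 4150 CPM in KO, without overlap (0.13 ± 0.08, adjusted p = 0.723). Among the tRNAs mt-Ti had the largest value, 0.49 ± 0.25 (adjusted p = 0.650). mt-Nd3, untested here, had 0, 0 and 0 counts in wild type and 2, 5 and 5 in KO. Over the groups these are 0 of 61.3 M and 12 of 97.1 M gene counts. Setting the wild-type group at a floor of 3 counts gives a ratio of 2.52 per gene count. The counting error of the 12 KO counts is left out of it, so 2.52 is not a lower limit. The novelty groups held 2 of 80.3 M (wild type) and 2 of 58.8 M (KO). mt-Nd3 was named after its values were seen, and 98.0% of its stretches of 50 bases are shared. No effect of KO is therefore read from the ratio.

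Novelty is a stimulus known to switch on activity-dependent genes in the hippocampus. The rRNAs had the smallest edgeR p-values of the members for novelty averaged over both genotypes and within wild type, but not within KO. Averaged over wild type and KO, mt-Rnr1 rose by 0.27 ± 0.06 on the log2 scale (edgeR, adjusted p = 0.0460). It was the only one of 17 tested genes to be called, beside 1.35% of all genes. An unadjusted p under 0.05 was found for 4 of the 17, against 13.5% of all genes. mt-Rnr1 had 2545, 2477 and 2427 CPM in untreated wild type and 3560, 2862 and 3191 CPM after novelty, and 2571, 2736 and 2598 CPM in untreated KO and 3254, 2897 and 2723 CPM after novelty. In wild type the groups did not overlap, and in KO the lowest novelty library lay just under the highest untreated library. mt-Rnr2 had 4051, 3886 and 3827 CPM in untreated wild type and 5589, 4649 and 5001 CPM after novelty. In KO it had 4179, 4585 and 4150 CPM untreated and 4947, 4471 and 4211 CPM after novelty, with overlap. Its average was 0.23 ± 0.06, which missed edgeR's threshold (adjusted p = 0.0720). DESeq2 called both rRNAs in this comparison, mt-Rnr1 at 0.26 (adjusted p = 0.0031) and mt-Rnr2 at 0.22 (adjusted p = 0.0147). It called 431 of all 15119 genes to which it gave an adjusted p.

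The call of mt-Rnr1 was near its threshold. Without both libraries set apart it remained, at 0.23 (adjusted p = 0.0237), beside 454 of all 16556 genes called. Left out one at a time, 9 of the 12 libraries ended the call (0.22 to 0.30, adjusted p from 0.0106 to 0.133), the calls that remained being those without wild-type novelty library 1 or 2 or KO novelty library 2. Scaling by total counts (adjusted p = 0.0739), the replicate number as a block (0.0565) and offsets for GC content and length (0.40, adjusted p = 0.0720) ended it as well. Most mRNAs had the opposite sign: the median over the 9 tested was -0.10 with 2 positive, and mt-Nd5, with the largest value of complex I, had -0.21 ± 0.08 (adjusted p = 0.238). mt-Cytb had -0.09 ± 0.06, mt-Co3 0.23 ± 0.30, mt-Atp6 0.02 ± 0.25 and, of the tRNAs, mt-Tm, for methionine, -0.18 ± 0.18, with adjusted p from 0.602 to 0.987.

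**Figure D3:**
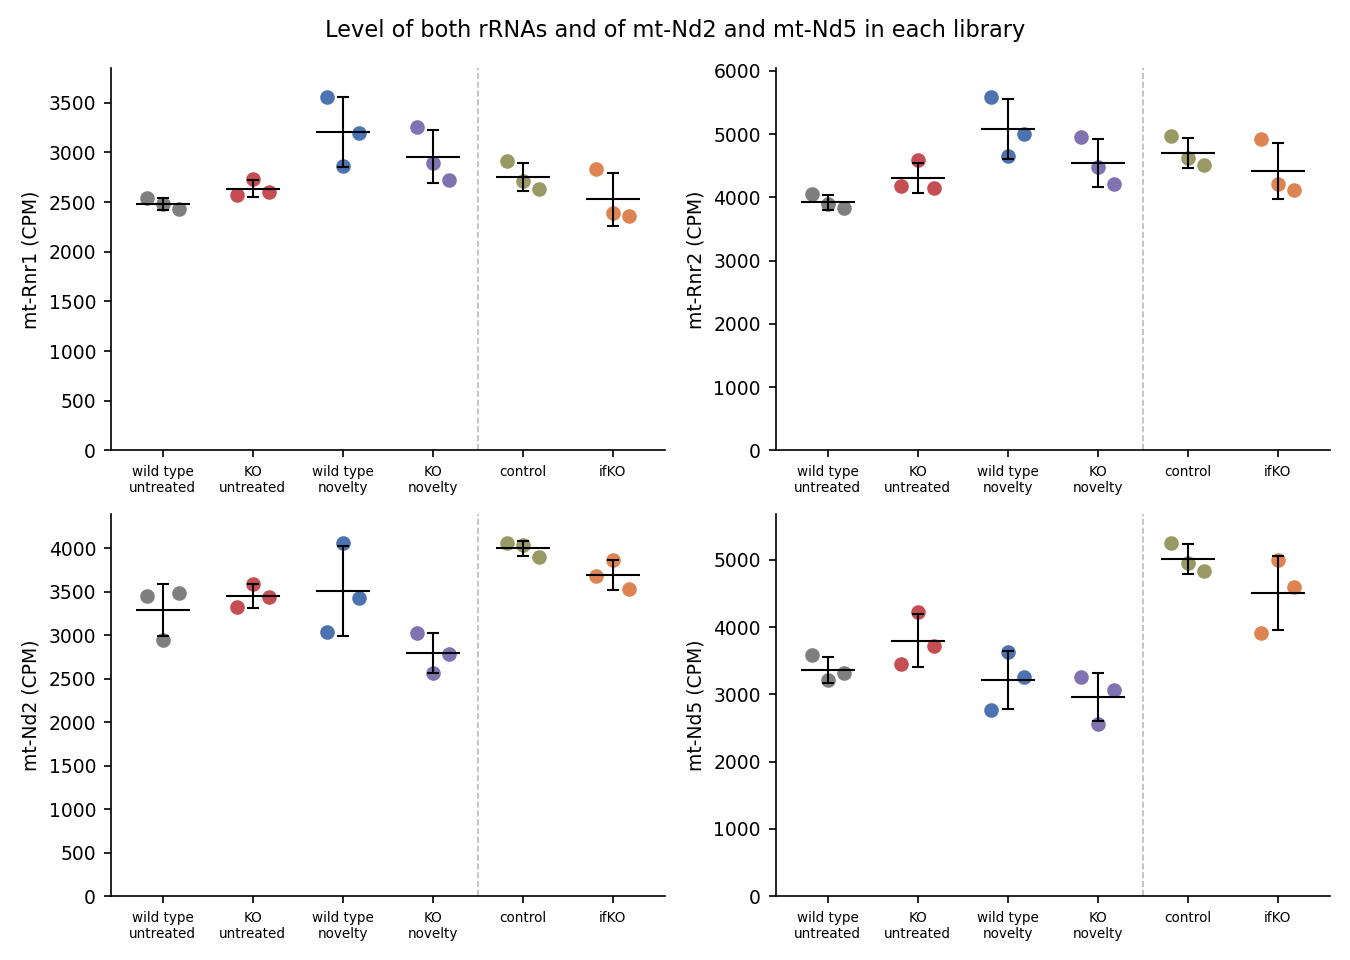
CPM of both rRNAs and of mt-Nd2 and mt-Nd5 in each library (points), with the mean ± SD of 3 libraries per group; the dashed line separates the lines, and each axis starts at 0. The 3 wild-type novelty libraries lie above the 3 untreated wild-type libraries for both rRNAs, at 2862 to 3560 CPM against 2427 to 2545 CPM for mt-Rnr1, and the KO novelty libraries lie at 2565 to 3023 CPM for mt-Nd2 against 3032 to 4057 CPM in wild type after novelty.

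Taken within wild type, novelty gave 0.37 ± 0.08 for mt-Rnr1 (adjusted p = 0.0854) and 0.37 ± 0.08 for mt-Rnr2 (adjusted p = 0.0718). Neither was called by edgeR, both were called by DESeq2 (adjusted p = 0.0074 and 0.0036), and of 17 members 0 were called by edgeR, beside 0.384% of all genes called. DESeq2 called 218 of all 15437 genes to which it gave an adjusted p. An unadjusted p under 0.05 was found for 3 of the 17, against 1797 of all 16392 genes. Of the 11 marker lists 3 did not overlap between these groups: after novelty CA2 and CA3 markers were higher (199.2 to 224.4 against 174.0 to 197.5 CPM), and oligodendrocyte (2595 to 2994 against 3065 to 3330) and endothelial markers (126.6 to 142.6 against 144.7 to 153.0) lower. Their part in the rRNA values was not tested. Both rRNAs were called by edgeR without the 2 libraries set apart, at 0.29 (adjusted p = 0.0483) and 0.30 (adjusted p = 0.0390), and so was mt-Ti at 0.85 (adjusted p = 0.0390), which had 0.60 ± 0.26 (adjusted p = 0.404) with all libraries. Without the 2 libraries, 451 of all 16556 genes tested were called. Both rRNAs were also called without wild-type novelty library 2 alone, at 0.44 and 0.43. The mRNA median was 0.04 with 6 of 9 positive, and that of the 7 counted mRNAs was 0.02, or -0.02 when scaled by total counts. The largest values by complex were mt-Nd6 at 0.16 ± 0.19, mt-Co3 at 0.58 ± 0.40, mt-Atp6 at 0.40 ± 0.34 and mt-Cytb at -0.07 ± 0.09.

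Within KO, novelty gave 0.17 ± 0.08 for mt-Rnr1 (adjusted p = 0.757), and 0 of 17 members were called by edgeR and 0 by DESeq2 beside 0.11% of all genes. An unadjusted p under 0.05 was found for 5 of the 17, against 6.71% of all genes. These 5 were the complex I mRNAs mt-Nd1, mt-Nd2, mt-Nd4, mt-Nd5 and mt-Nd6, and neither rRNA was among them. All 9 tested mRNAs had negative fold changes, with a median of -0.26 against 0.00 over all genes, of which 51.5% were positive. mt-Nd6 had 37.7, 59.6 and 33.2 CPM in untreated KO and 31.9, 35.5 and 28.5 CPM after novelty, with overlap (-0.44 ± 0.20, adjusted p = 0.732). mt-Nd5 had 3444, 4220 and 3713 CPM untreated and 3251, 2563 and 3058 CPM after novelty, without overlap (-0.36 ± 0.11, adjusted p = 0.432, the smallest of the members). mt-Cytb had -0.11 ± 0.09, mt-Co3 -0.12 ± 0.42, mt-Atp6 -0.36 ± 0.36 and mt-Te, the glutamate tRNA, 0.67 ± 0.41.

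KO against wild type after novelty compares the same novelty libraries, so it is no separate evidence beside the within-genotype values. Of 17 members 0 were called by edgeR and 0 by DESeq2, beside 1.34% of all genes called. An unadjusted p under 0.05 was found for 5 of the 17, against 8.73% of all genes. Astrocyte markers were higher in every KO than in every wild-type novelty library (1215 to 1348 against 1067 to 1211 CPM), the only list of 11 without overlap, and their part was not tested. All 9 tested mRNAs were negative, with a median of -0.21 (all genes 0.00, 50.6% positive). mt-Nd2 had 3032, 4057 and 3428 CPM in wild type against 3023, 2565 and 2786 CPM in KO, so that the highest KO library lay under the lowest wild-type library (-0.33 ± 0.10, adjusted p = 0.212, the smallest of the members). It was called without both libraries set apart (-0.37, adjusted p = 0.0383) and without wild-type novelty library 1 alone (-0.43, adjusted p = 0.0392). mt-Nd6 had 39.7, 54.3 and 40.4 CPM in wild type against 31.9, 35.5 and 28.5 CPM in KO, without overlap (-0.49 ± 0.20, adjusted p = 0.424). The other largest values were mt-Cytb at -0.10 ± 0.09, mt-Co3 at -0.60 ± 0.41, mt-Atp6 at -0.62 ± 0.35, mt-Rnr2 at -0.16 ± 0.08 and mt-Te at 0.96 ± 0.43, with adjusted p from 0.535 to 0.908. mt-Ti was called without both libraries, at -1.04 (adjusted p = 0.0226). Without both, 705 of all 16556 genes tested were called.

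Whether novelty acted differently in KO and wild type was tested as an interaction. No gene of 16392 was called by edgeR (0%), although 563 had an unadjusted p under 0.05, 5 of the 17 members among them, and DESeq2 called 0 of the same 16392 genes. The mRNA median of this difference of differences was -0.29 with 0 of 9 positive. mt-Nd6 had -0.60 ± 0.28, mt-Rnr2 -0.30 ± 0.11, mt-Co3 -0.70 ± 0.59, mt-Atp6 -0.76 ± 0.49, mt-Cytb -0.04 ± 0.13 and mt-Te 1.16 ± 0.61, each with an adjusted p of 1.00. Without both libraries set apart mt-Ti was called, at -1.53 (adjusted p = 0.0357), and over all genes 331 of 16556 were called. With all libraries but no low-count filter, 8 of 28595 genes were called. The count of 0 over all genes thus depended on these 2 libraries and on the filter. Neither rRNA was called in any of these fits, so the larger rRNA value in wild type than in KO did not pass as a difference between genotypes.

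**Figure D4:**
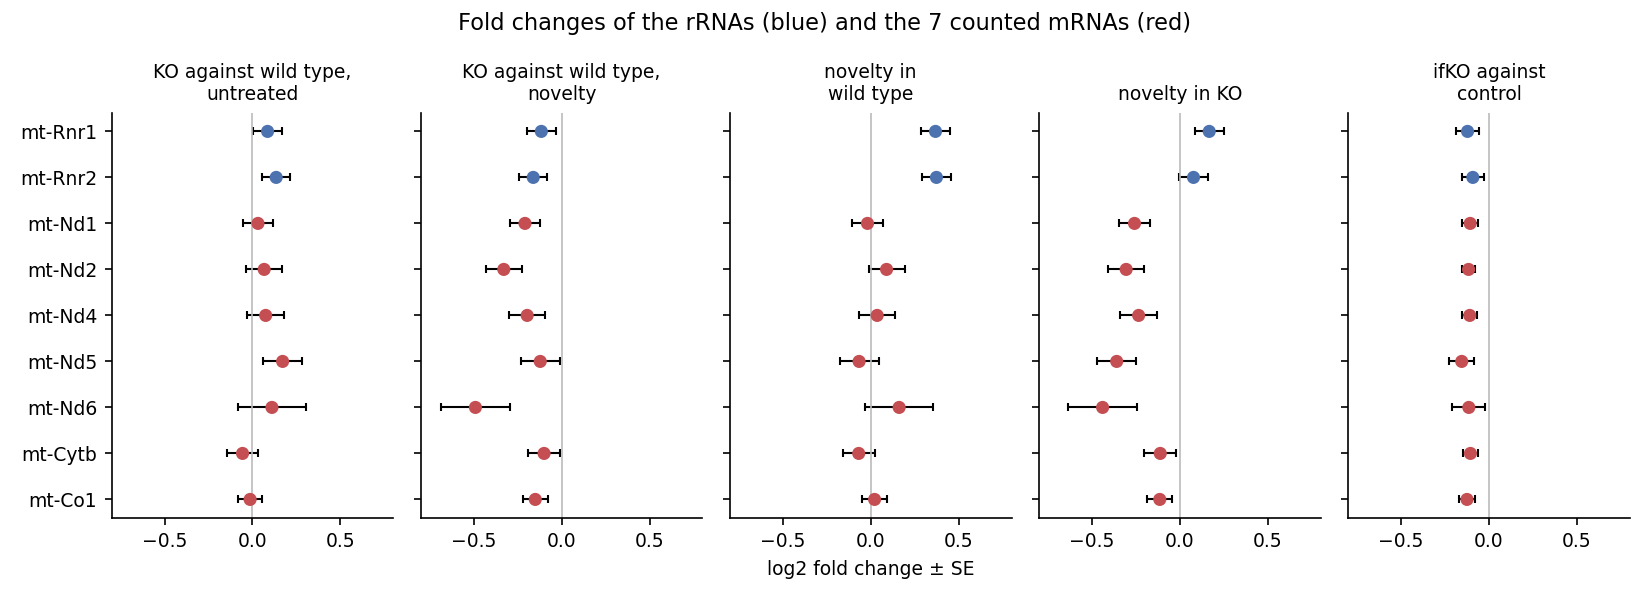
log2 fold change ± SE of both rRNAs (blue) and the 7 counted mRNAs (red) in 5 comparisons. In novelty within wild type both rRNAs lie at 0.37 while the mRNAs straddle 0, in both comparisons that use the KO novelty libraries the 7 mRNAs lie below 0, and in ifKO against control all 9 genes lie slightly below 0.

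In the inducible line the deletion is confined by its promoter, and the comparison asked what loss of Kdm5c in adult neurons does. Of 22 members tested 0 were called by edgeR and 0 by DESeq2 (smallest adjusted p = 0.463, mt-Nd2), beside 0.645% of all genes called. An unadjusted p under 0.05 was found for 6 of the 22, against 6.64% of all genes. Inhibitory neuron markers were lower in every ifKO than in every control library (699.8 to 711.3 against 727.9 to 742.1 CPM), the only list of 11 without overlap, and their part was not tested. The mRNA median was -0.11 with 3 of 12 positive, against 0.00 and 50.6% over all genes. mt-Nd5 had 5256, 4954 and 4829 CPM in control and 3912, 4997 and 4601 CPM in ifKO, with overlap (-0.15 ± 0.07, adjusted p = 0.747). mt-Co1 had 19166, 18985 and 19107 CPM in control and 16564, 18908 and 17040 CPM in ifKO, without overlap, although the highest ifKO library came close to the lowest control library (-0.12 ± 0.05, adjusted p = 0.594). mt-Cytb had 7381, 7027 and 6954 CPM in control and 6476, 6995 and 6388 CPM in ifKO (-0.11 ± 0.04, adjusted p = 0.624). mt-Co3, with 101, 87 and 95 counts against 92, 69 and 66, had -0.30 ± 0.15, and mt-Atp8, with 13, 9 and 10 counts against 15, 15 and 11, had 0.38 ± 0.31. mt-Rnr1 had 2911, 2712 and 2632 CPM in control and 2836, 2389 and 2362 CPM in ifKO (-0.12 ± 0.06, adjusted p = 0.806), and mt-Te had 0.64 ± 0.36. Library ifKO 1 had the lowest mt-Nd5 and the highest mt-Nd6 and rRNA levels of its group. Without it mt-Nd6 was called at -0.27 (adjusted p = 0.0226), and without ifKO 2 mt-Co1 was called at -0.19 (adjusted p = 0.0476). Without the low-count filter 8 members were called, both rRNAs and 6 of the 7 counted mRNAs, all negative. That setting called 398 of all 28667 genes tested, against 112 of 17367 with the filter.

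The effect of lifelong loss was set against that of inducible loss in 1 fit over all 18 libraries, comparing only groups without novelty. Of 22 members 0 were called by edgeR and 0 by DESeq2, beside 0.114% of all genes called. An unadjusted p under 0.05 was found for 3 of the 22, against 701 of all 17508 genes. The mRNA median of the difference was 0.19 with 11 of 11 positive, against 0.00 and 50.1% over all genes. The named values were mt-Rnr2 at 0.23 ± 0.11, mt-Co3 at 0.39 ± 0.43, mt-Atp6 at 0.13 ± 0.37 and mt-Cytb at 0.05 ± 0.11, each with an adjusted p of 1.00. mt-Nd3 had the smallest adjusted p, 0.635, on 0 counts in untreated wild type, 12 in untreated KO, 114 in control and 120 in ifKO, the last pair giving a ratio of 1.07 per gene count. For mt-Tl1, the tRNA with the largest fitted value, the inducible line had 0 or 1 count in a library, so no fold is given.

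The nuclear partners of these genes were counted from lists, and edgeR called no gene of any list in any comparison (smallest adjusted p = 0.0549). DESeq2 called Usmg5, a small subunit of ATP synthase, in untreated KO (-1.07 ± 0.29, adjusted p = 0.0158) and in the difference of knockout effects (-1.09 ± 0.22, adjusted p = 0.000738), where edgeR gave adjusted p = 0.0804 and 0.155. It also called Slirp, a partner of Lrpprc in keeping the mRNAs, in untreated KO (-0.35 ± 0.11, adjusted p = 0.0477), Mrpl51, of the mitochondrial ribosome, for novelty over both genotypes (0.22 ± 0.06, adjusted p = 0.0280), and Rn7sk, an RNA without a tail, in KO after novelty (-0.77 ± 0.21, adjusted p = 0.0219). These genes were named after their values were seen. Over all genes DESeq2 called 273 of 16391 in untreated KO and 317 of 16391 in KO after novelty. It called 431 of 15119 for novelty over both genotypes and 46 of 17165 in the difference of knockout effects. In untreated KO against wild type the 77 nuclear subunits of complexes I to V had a median of -0.11 with 6 positive and 14 at an unadjusted p under 0.05, against 0.00 and 1419 of 16392 over all genes, while the mitochondrial mRNAs had 0.07. Complex I alone had 36 nuclear subunits with a median of -0.13 and 1 positive. Of 11 lists of cell type markers, 6 did not overlap between the same groups. Summed markers were lower in every untreated KO library for oligodendrocytes and for inhibitory neurons (566.6 to 630.3 against 638.4 to 720.9 CPM). They were higher in every untreated KO library for astrocytes (1310 to 1335 against 1123 to 1230 CPM), microglia (238.2 to 256.4 against 222.5 to 237.9), CA2 and CA3 neurons (206.1 to 216.1 against 174.0 to 197.5) and choroid plexus (58.3 to 618.8 against 37.1 to 44.6). Their part in the values of the nuclear subunits was not tested. After novelty the same 77 genes had a median of -0.02 with 34 positive in KO against wild type, -0.01 with 33 positive for novelty within wild type, and 0.08 with 67 positive for novelty within KO. In ifKO against control the median was -0.02 with 30 positive, and the median over all genes was 0.00 in each of these comparisons. These comparisons share libraries, so the medians are not separate evidence of one another.

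Summed over the 7 counted mRNAs, levels were 31535 ± 1384 CPM in untreated wild type, 32017 ± 899 in untreated KO, 31374 ± 2757 in wild type after novelty and 27931 ± 2783 in KO after novelty (mean ± SD, n = 3). The 77 nuclear subunits summed to 7758, 7286, 7785 and 7726 CPM in these groups. The ratio of both sums was 4.07 ± 0.32, 4.40 ± 0.18, 4.07 ± 0.67 and 3.61 ± 0.35, and 5.81 ± 0.19 in control and 5.37 ± 0.40 in ifKO. Wild-type novelty library 1 had the lowest mitochondrial mRNA sum of its group, 28730 CPM, with the highest nuclear sum of all libraries, 8499 CPM, and the highest rRNA levels.

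**Figure D5:**
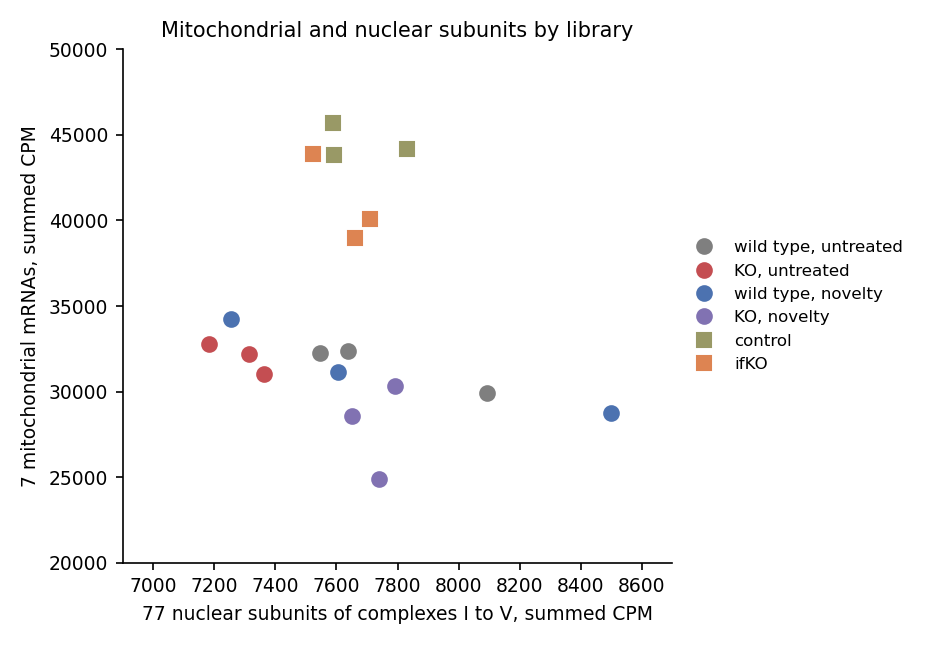
Summed CPM of the 7 counted mitochondrial mRNAs (vertical axis) against that of the 77 nuclear subunits of complexes I to V (horizontal axis), 1 point per library, circles for single-read and squares for paired-read libraries; neither axis starts at 0. KO novelty library 2 is lowest at 24882 CPM, and wild-type novelty library 1 lies farthest right at 8499 CPM.

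The 4 named factors that make or keep mitochondrial RNA were called by neither tool. Tfam, which packages mitochondrial DNA and starts its transcription, had -0.08 ± 0.07 in untreated KO against wild type (adjusted p = 0.841), -0.17 ± 0.08 for novelty within wild type (adjusted p = 0.434) and 0.03 ± 0.04 in ifKO against control (adjusted p = 0.946). Polrmt, the mitochondrial RNA polymerase, had -0.01 ± 0.09, -0.03 ± 0.09 and 0.07 ± 0.05 in these comparisons. Lrpprc, which stabilises the mRNAs, had 0.07 ± 0.08, -0.09 ± 0.08 and 0.03 ± 0.04. Ppargc1a, a coactivator of mitochondrial biogenesis, had 0.04 ± 0.12, -0.10 ± 0.12 and -0.06 ± 0.05. Of 18 genes for transcription and replication of mitochondrial DNA, 4 were positive in untreated KO (median -0.05), 7 for novelty within wild type (median -0.06), 7 for novelty within KO (median -0.04) and 8 in ifKO against control. Of 77 tested mitochondrial ribosomal protein genes, 12 were positive in untreated KO (median -0.06), 29 for novelty within wild type (median -0.02), 52 for novelty within KO (median 0.05) and 35 in ifKO against control (median -0.01). Of 34 genes for processing of mitochondrial RNA, 15, 13 and 13 were positive in these comparisons, with medians of -0.03, -0.02 and -0.01, and 8 in ifKO against control, with a median of -0.03. Over all genes 50.5%, 49.3%, 51.5% and 50.6% were positive in these 4 comparisons, each with a median of 0.00. Of 11 regulators of biogenesis, 8, 7 and 8 were positive in the 3 comparisons of the KO line, with medians of 0.07, 0.12 and 0.06, and 8 in ifKO against control, with a median of 0.03.

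Libraries that select poly(A) tails, as the mRNA kit named for the KO line does, keep mitochondrial rRNAs only as far as their short tails allow. Nuclear RNAs without a poly(A) tail were therefore read beside them. The 25 listed RNAs of this kind summed to 6.38 to 7.21 CPM in untreated wild type and 6.91 to 7.73 CPM after novelty, overlapping ranges, and 4 of them were tested, with a median of 0.13 and 2 positive. In KO they summed to 4.28 to 5.18 CPM untreated and 3.32 to 5.62 CPM after novelty. Against wild type the 4 tested genes had a median of -0.34 in untreated KO and -0.48 after novelty, with 0 positive in either. The part of tail selection in the rRNA values was not tested. The 7 nuclear copies summed to 1.97 to 3.21 CPM over the 12 libraries of the KO line, with group means of 2.43 to 2.59 CPM.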

How the data were processed

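RNA was sequenced from hippocampus in 18 stranded libraries; the labels' protocol names an mRNA kit for the single-read libraries only, and the kit of the paired-read libraries is a detail not given in the sources used here. Per the deposited files, values are raw counts per Ensembl gene, without normalization, made by the authors with STAR 2.5.0c, SAMtools 1.3, HTSeq 0.6.1 and DESeq2 on GRCm38, per the submitters' processing notes. The strand and overlap settings of the counter are details not given in the sources used here, so genes that overlap or lie antisense to each other may not be fully separated. Summary lines of the counter (reads without a feature, 11.2% to 14.6% of all reads, ambiguous reads and reads without a unique alignment) stayed out of library sizes.

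Of 47069 IDs, 46574 matched a GENCODE M21 symbol, and sequences come from its transcripts (GRCm38). Sharing was counted over all windows of 50 and 75 bases on both strands, and copies were aligned with Biopython 1.88. Tests used edgeR 4.0.16 quasi-likelihood fits in R 4.3.3 on all genes that passed filterByExpr (minimum count 10, minimum total 15), with TMM factors and Benjamini-Hochberg adjustment at 0.05, on 12 libraries of the KO line (16392 genes), 6 of the inducible line (17367) or all 18 (17508). The fit was tested on simulated counts. Fold changes carry a prior count of 0.125. Intervals of counting error are not printed, and reads without molecular identifiers are not independent molecules. Named were members with an adjusted p under 0.05, the member with the largest absolute fold change of each class in each comparison, the 3 tRNAs with the highest mean count, and Tfam, Polrmt, Lrpprc and Ppargc1a; mt-Nd2, mt-Nd3, mt-Co1 and further tRNAs were added after their values were seen. The members and lists were chosen with earlier results of these data known. Alternatives were DESeq2 1.42.0, other scalings and filters, a replicate block, only the groups compared, a fold change threshold, GC and length offsets, and leaving out libraries.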

Additional observations from a re-analysis of the deposited data

How the results depend on the processing

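The call of mt-Rnr1 for novelty over both genotypes set the only nonzero count of members called, 1. That count was 2 with DESeq2, 3 without a low-count filter, and 0 with total counts, after correction for GC content and length, and when a fold change of 1.2 was the null. Leaving out 1 library at a time gave 0 to 2. Over all genes 431 of 15119 were called with DESeq2 and 415 of 28595 without a filter, against 222 of 16392 in the main fit. For novelty within wild type the count of 0 members became 2 with DESeq2, 2 without a filter, 3 without both libraries set apart, and 0 to 2 without 1 library. Over all genes 218 of 15437 were called with DESeq2, 252 of 28595 without a filter and 451 of 16556 without both libraries. The main fit called 63 of 16392. For KO against wild type after novelty the count of members became 2 without a filter, 2 without both libraries, and 0 to 1 without 1 library. Over all genes 328 of 28595 were called without a filter and 705 of 16556 without both libraries, against 219 of 16392. Novelty within KO gave 1 member without a filter, the interaction 1 without both libraries, and ifKO against control 8 without a filter and 0 to 1 without 1 library. Over all genes 101 of 28595 were called for novelty within KO and 398 of 28667 for ifKO against control, both without a filter. The interaction had 331 of 16556 without both libraries and 8 of 28595 without a filter. The main fits called 18 of 16392, 112 of 17367 and 0 of 16392. No member was called under any alternative for untreated KO against wild type or for the knockout effect against the inducible one.

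With the replicate number as a block the count of members called for novelty over both genotypes was 0 (mt-Rnr1 0.26, adjusted p = 0.0565), and the block changed no other count of members called. Deviations from the group mean were correlated between libraries of different groups. For same-numbered libraries the correlations ran from -0.467 to 0.484 with a median of -0.116, and 7 of 21 exceeded 0.1. For differently numbered libraries they ran from -0.488 to 0.410 with a median of 0.028, and 18 of 42 exceeded 0.1. With means of only 3 libraries these values cannot exclude pairing, and the main fits did not pair the samples.

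Of 877 values of named members under alternatives, 832 kept sign and side of the threshold, 13 lost the call, 10 gained one and 22 changed sign. Sign changes with GC and length offsets were mt-Rnr2 in untreated KO (-0.0014), mt-Cytb for novelty within wild type (0.0027), and mt-Atp6 (-0.040) and mt-Cytb (-0.056) in the difference of knockout effects. For novelty over both genotypes mt-Co3 became -0.086 without both libraries, and mt-Atp6 -0.041 without both and -0.0043 with total counts. Leaving out 1 library gave ranges across 0 for mt-Co3 (-0.14 to 0.41) and mt-Atp6 (-0.14 to 0.35) in untreated KO, mt-Cytb (-0.19 to 0.00052) in KO after novelty, mt-Nd6 (-0.0062 to 0.30) for novelty within wild type, mt-Co3 (-0.32 to 0.11) for novelty within KO, mt-Atp6 (-0.13 to 0.15) for novelty over both, mt-Cytb (-0.13 to 0.059) for the interaction, and mt-Tl1 (-0.18 to 1.85) and mt-Atp6 (-0.14 to 0.33) for the difference of knockout effects. The cause of these changes was not tested.

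The median of the 7 counted mRNAs in untreated KO, 0.07, ran from -0.06 to 0.07 over other settings and from -0.02 to 0.11 without 1 library, so it has no fixed sign. It stayed negative for novelty within KO (-0.35 to -0.14) and for ifKO against control (-0.15 to -0.06). Counts of the 6 genes with shared or missing reads and of the tRNAs are too low to show small differences.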
